A study of Homo sapiens with 96 samples.

Results

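The cytosolic ribosomal protein genes were followed here through their splicing events: every skipped exon (SE), pair of alternative exons (MXE), alternative 3′ or 5′ splice site (A3SS, A5SS) and retained intron (RI) whose gene symbol was RPL or RPS with a number, RPLP0, RPLP1, RPLP2 or RPSA. The rule took symbols only and no measured value. It found 1256 of the 239131 events of the series, in 81 genes: 695 of 164623 SE, 282 of 52686 MXE, 97 of 10117 A3SS, 95 of 6777 A5SS and 87 of 4928 RI.

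The cells were A549, 1 established human lung adenocarcinoma line, so all values are of this line and of 1 dose. Poly(A) RNA was sequenced after 2, 4 or 7 days with 1 µM GSK591, an inhibitor of PRMT5, or 1 µM MS023, an inhibitor of the type I PRMTs, after 2 or 4 days with both inhibitors (co-treatment), and after 4 or 7 days with 0.01% DMSO, with 3 libraries in each of the 10 groups. The 2- and 4-day groups were compared with the 4-day DMSO libraries, so these 6 comparisons share their controls and the 2-day ones also differ from them in time, and the 7-day groups were compared with the 7-day DMSO libraries. The labels do not say that the libraries of a group came from separate cultures, so p-values rest on spread between libraries. That spread was in part borrowed from other events, as described below. The tables hold splicing events and no expression levels, so markers of the cell line were not checked, and in RNA from bulk cells fewer cells using a splice form and less of that form per cell cannot be told apart.

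Most of these proteins sit in the small or the large subunit of the cytosolic ribosome. The P stalk (RPLP0, RPLP1 and RPLP2) is the part of the large subunit that recruits elongation factors, and its genes are counted separately below. The genes are short, strongly expressed and rich in introns, many introns carry a small nucleolar RNA (snoRNA) that guides modification of ribosomal RNA, and several of the proteins limit their own production by promoting unproductive splicing of their transcripts. PRMT5 makes symmetric and the type I PRMTs asymmetric dimethylarginine. Both classes of enzyme modify spliceosomal and other RNA-binding proteins, and RPS2, RPS3 and RPS10 are themselves known PRMT substrates.

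Inclusion was measured as Ψ, the share of length-corrected reads that supported the longer or included form (for MXE, the first exon of the pair in the transcript), and ΔΨ is the mean of the inhibitor libraries minus the mean of the DMSO libraries. An event was tested where every library held at least 10 reads, and it was called where the adjusted p of a quasi-binomial test across all events of its type was below 0.05. Ribosomal protein events were deep, with a median of 12144 to 15154 reads per tested SE against 176 to 227 for all SE, so very small differences of Ψ could be called. The adjusted p given for a single event comes from a stricter form of the test, chosen after seeing the data, in which the event's own spread between libraries replaced the moderated one where it was larger. Where the own spread was smaller, the spread moderated over all events of the type was kept, with more degrees of freedom. Very small adjusted p-values therefore rest on spread borrowed from other events. Adjusted p-values of different events or comparisons do not rank the sizes of their changes. Values of a group are given in the order of the tables, as libraries a, b and c. Over the introns, pairs of libraries of 1 group differed by 2.49 to 23.9 times what counting error alone gives (chi-square per degree of freedom), so no pair agreed within sampling noise.

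The exons and introns that the results turn on are shown first, read from hg19 on the transcribed strand. Exonic bases are in capitals and intronic bases in lower case, with 15 flanking bases at each end. The 3 exons are skipped more often under co-treatment than any other constitutive exon described here. They are RPLP0 exon 6 of 8 (chr12:120636357-120636542, minus strand, coding, 186 bases), RPS25 exon 2 of 5 (chr11:118888668-118888763, minus strand, coding, 96 bases) and RPL17 exon 3 of 7 (chr18:47017775-47017815, minus strand, coding, 41 bases, so that skipping shifts the reading frame).
RPLP0 exon 6: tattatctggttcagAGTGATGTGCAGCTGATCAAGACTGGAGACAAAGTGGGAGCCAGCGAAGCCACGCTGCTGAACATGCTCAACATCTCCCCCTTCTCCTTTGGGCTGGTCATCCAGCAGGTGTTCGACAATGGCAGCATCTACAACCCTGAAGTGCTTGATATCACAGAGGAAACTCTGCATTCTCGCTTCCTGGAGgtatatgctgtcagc
RPS25 exon 2: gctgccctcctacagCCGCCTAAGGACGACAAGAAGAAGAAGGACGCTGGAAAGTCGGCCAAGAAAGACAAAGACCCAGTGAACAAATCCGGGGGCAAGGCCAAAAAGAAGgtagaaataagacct
RPL17 exon 3: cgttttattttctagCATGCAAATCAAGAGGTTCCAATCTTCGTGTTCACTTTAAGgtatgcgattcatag

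The introns below were retained more under GSK591, that of RPS21 at 4 days and that of RPS16 at 2 days. Their replicates at these times did not overlap those of DMSO. The introns are RPS21 intron 5 of 5 (chr20:60963421-60963512, plus strand, 92 bases) and RPS16 intron 4 of 4 (chr19:39924059-39924161, minus strand, 103 bases). Both begin with GT and end with AG.
RPS21 intron 5: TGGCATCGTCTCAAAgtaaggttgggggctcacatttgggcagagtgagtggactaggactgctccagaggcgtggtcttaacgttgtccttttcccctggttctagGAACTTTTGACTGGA
RPS16 intron 4: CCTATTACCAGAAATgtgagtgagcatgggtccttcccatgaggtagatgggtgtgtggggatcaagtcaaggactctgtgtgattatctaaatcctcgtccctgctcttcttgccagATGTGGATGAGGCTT

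Exon 6 of RPLP0, which encodes the protein at the base of the P stalk, fell furthest among the constitutive exons described here. Its Ψ in the 4-day DMSO libraries was 0.958, 0.96 and 0.964. It was 0.858, 0.87 and 0.873 after 2 days of GSK591, 0.813, 0.818 and 0.824 after 2 days of MS023, and 0.615, 0.602 and 0.61 after 2 days of co-treatment. At 4 days it was 0.884, 0.882 and 0.885 with GSK591, 0.841, 0.838 and 0.831 with MS023, and 0.607, 0.603 and 0.599 with both. No library of any inhibitor group reached the range of DMSO, and the co-treated libraries lay below those of either inhibitor alone. The mean fell by 0.0942 and 0.0773 with GSK591 at 2 and 4 days (adjusted p = 0.00335 and 0.000525), by 0.143 and 0.124 with MS023 (adjusted p = 0.000635 and 0.000867), and by 0.352 and 0.358 with co-treatment (SE 0.00421 and 0.00287, adjusted p = 1.76e-05 and 7.01e-06). Skipping reads numbered 656 to 839 in the 4-day DMSO libraries and 8527 to 10191 in the co-treated libraries of the same day.

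Set directly against each other, co-treatment lay 0.258 and 0.281 below GSK591 at 2 and 4 days and 0.209 and 0.234 below MS023 (adjusted p = 0.000522 for the 2-day comparison with GSK591, and 0.000128 and 2.95e-05 for MS023). GSK591 lay above MS023 at 2, 4 and 7 days, by 0.0488, 0.047 and 0.0976 (adjusted p = 0.0326, 0.00338 and 0.0118). On the log2 odds scale the co-treated value was not distinguishable from the sum of both single effects, with a departure of 0.39 at 2 days and -0.06 at 4 days (adjusted p = 0.49 at 2 days). At 7 days the DMSO libraries held 0.933, 0.923 and 0.94, the GSK591 libraries 0.909, 0.92 and 0.911 and the MS023 libraries 0.826, 0.797 and 0.824. GSK591 was then 0.0187 below DMSO, without overlap but with an adjusted p of 0.347 in the stricter form, while MS023 was 0.116 below (adjusted p = 0.0302). The GSK591 effect at 7 days was smaller than at 4 days by 1.32 ± 0.15 (SE) on the log2 odds scale (adjusted p = 0.00906). The same exon is listed in 3 lengths that share their skipping reads, so these are 1 observation.

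RPS25 exon 2 encodes part of the lysine-rich amino terminus of a small subunit protein. It was included almost fully in the 4-day DMSO libraries (Ψ 0.995, 0.995 and 0.994, with 30, 27 and 35 skipping reads). After 2 days Ψ was 0.979, 0.981 and 0.977 with GSK591, 0.986, 0.986 and 0.988 with MS023, and 0.902, 0.899 and 0.902 with both. After 4 days it was 0.964, 0.967 and 0.962 with GSK591, 0.977, 0.974 and 0.976 with MS023, and 0.838, 0.825 and 0.822 with both, with 1176, 1127 and 1074 skipping reads. The groups did not overlap DMSO at either time, and co-treatment was again the lowest. The mean fell by 0.0155 and 0.0305 with GSK591 (adjusted p = 1.54e-10 and 9.4e-19), by 0.00796 and 0.0192 with MS023 (adjusted p = 1.63e-07 and 8.88e-20) and by 0.0938 and 0.167 with co-treatment (adjusted p = 2.46e-32 and 9.39e-05). Co-treatment was 0.136 below GSK591 and 0.147 below MS023 at 4 days (adjusted p = 0.00078 and 0.000178). At 7 days DMSO itself lay 0.00639 below the 4-day DMSO libraries (adjusted p = 0.000193), and GSK591 and MS023 were 0.0206 and 0.02 below the 7-day DMSO libraries with adjusted p = 0.0726 and 0.0655. A row with a longer form of this exon (chr11:118888635-118888763) shares these skipping reads but holds few inclusion reads, so its Ψ, 0.869 in DMSO and 0.154 in 4-day co-treatment, does not measure inclusion of the exon. That reference-exon row, like that of RPL17, was added after its values were seen.

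RPL17 exon 3, in the gene of a large subunit protein that lines the peptide exit tunnel, fell with GSK591 and with co-treatment. Its Ψ was 0.997, 0.997 and 0.999 in the 4-day DMSO libraries. GSK591 gave 0.986, 0.983 and 0.984 at 4 days, MS023 gave values from 0.998 to 1, and co-treatment gave 0.96, 0.959 and 0.957. The GSK591 and co-treated libraries lay below DMSO, with differences of -0.0137 and -0.0393 (adjusted p = 0.016 and 0.00103), and MS023 was not called at any time. The same differences at 2 days were -0.00992 and -0.0241 (adjusted p = 0.0299 and 0.00543). GSK591 and MS023 differed directly at 2 and 4 days (adjusted p = 2.1e-15 and 3.88e-24) but not at 7 days in the stricter form (adjusted p = 0.243). Co-treatment lay 0.0256 below GSK591 at 4 days (adjusted p = 5.22e-26).

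RPS24 exon 5 (chr10:79799962-79799983, plus strand, 22 bases, not coding in the reference transcript) is one of the alternative exons at the 3′ end of this small subunit gene, and it moved in opposite directions with the 2 inhibitors. Its Ψ was 0.172, 0.184 and 0.199 in the 4-day DMSO libraries. With GSK591 it was 0.0798, 0.076 and 0.0698 at 2 days and 0.0543, 0.0609 and 0.061 at 4 days. With MS023 it was 0.289, 0.305 and 0.316 at 2 days and 0.335, 0.323 and 0.321 at 4 days. Every GSK591 library was below and every MS023 library above the DMSO range, and the co-treated libraries sided with GSK591 (0.0661, 0.0703 and 0.0715 at 2 days, 0.0459, 0.0492 and 0.0412 at 4 days). The differences at 4 days were -0.126 with GSK591 (adjusted p = 0.00339), 0.141 with MS023 (adjusted p = 0.0156) and -0.14 with both (adjusted p = 0.00189). The co-treated value at 4 days was lower than the sum of both effects by 1.49 ± 0.13 log2 odds (adjusted p = 0.00902), and it was 0.0133 below GSK591 alone (adjusted p = 0.0371).

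At 7 days RPS24 exon 5 was higher with MS023 and was not called with GSK591 in the stricter form. The 7-day DMSO libraries held 0.17, 0.15 and 0.166, GSK591 0.229, 0.17 and 0.179, and MS023 0.308, 0.293 and 0.295. GSK591 reached into the range of DMSO (difference 0.0305, adjusted p = 0.556), and MS023 stayed 0.137 above it (adjusted p = 0.00885). The GSK591 effect differed between 7 and 4 days by 2.15 ± 0.2 log2 odds (adjusted p = 0.0131).

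RPL30 exon 3 of 5 (146 bases, coding) belongs to a large subunit protein known in yeast to bind its own pre-mRNA, and it fell with MS023. The 4-day DMSO libraries all held Ψ of 0.999. MS023 gave 0.988, 0.988 and 0.987 at 2 days and 0.989, 0.986 and 0.986 at 4 days, and at 7 days it gave 0.984, 0.984 and 0.981 against 0.998 in each DMSO library. None of these groups overlapped its DMSO libraries (differences -0.0112, -0.012 and -0.0147, adjusted p = 4.39e-30, 7.58e-23 and 1.14e-72), and GSK591 had adjusted p = 0.219 and 0.0572 at 2 and 4 days and was not called at 7 days. GSK591 lay above MS023 by 0.00877, 0.0107 and 0.0147 at 2, 4 and 7 days (adjusted p = 0.0294, 1.26e-19 and 4.77e-68). Co-treatment was 0.00415 below MS023 at 2 days (adjusted p = 0.0489), and the difference of 0.00148 ± 0.00116 (SE) at 4 days was within the spread (adjusted p = 0.597).

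Over all skipped exons of the ribosomal protein genes, the called events were more often lower than higher in each of the 8 comparisons with DMSO. With GSK591, 52 of 384 tested events were called at 2 days, against 7.16% of all SE (4 higher against 1.34%, and 48 lower against 5.82%). At 4 days it was 97 of 417 against 10.6% (6 higher against 2.52%, 91 lower against 8.07%), and at 7 days 59 of 424 against 8.55% (18 higher against 3.59%, 41 lower against 4.96%). With MS023, 37 of 376 were called at 2 days against 3.67% (12 higher against 1.04%, 25 lower against 2.63%), 37 of 364 at 4 days against 4.28% (12 higher against 1.5%, 25 lower against 2.77%) and 49 of 404 at 7 days against 4.95% (20 higher against 2.48%, 29 lower against 2.47%). With co-treatment, 98 of 430 were called at 2 days against 13.8% (7 higher against 2.32%, 91 lower against 11.5%) and 141 of 430 at 4 days against 14.6% (16 higher against 4.01%, 125 lower against 10.6%). Among all SE, lower calls also outnumbered higher ones except with MS023 at 7 days (1781 higher and 1779 lower). The share of members above that of all SE goes with their depth, whose part in the count was not tested.

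Most of these calls were of small size. At 4 days of co-treatment 19 members were called with a ΔΨ of at least 0.05 in size, 4.42% of those tested against 8.87% of all SE, and after 2 days of GSK591 the shares were 2.6% and 4.47%. The median ΔΨ of the members was -0.000194 in 4-day co-treatment, against -0.00188 for all SE. Rows that share a skipping junction repeat the same skipping reads. Counted once per junction, 90 of 290 were called in 4-day co-treatment (7 higher and 83 lower, in 58 genes), 64 of 282 with GSK591 at 4 days (4 and 60) and 25 of 252 with MS023 at 4 days (9 and 16), and 20, 12 and 11 of these changed by at least 0.01 on average. In the stricter form 73, 49 and 18 SE were called in these comparisons, against 6.12%, 3.93% and 1.32% of all SE. At 2 days it called 46 with co-treatment, 23 with GSK591 and 17 with MS023 (5.38%, 2.24% and 1.14% of all SE), and at 7 days 16 with GSK591 and 19 with MS023 (2.88% and 1.52%).

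Divided by place in the ribosome, 68 of 182 SE of small subunit genes (11 higher and 57 lower), 56 of 222 of large subunit genes (5 and 51) and 17 of 26 of P stalk genes (0 and 17) were called in 4-day co-treatment. With GSK591 at 4 days these were 44 of 173 (4 and 40), 40 of 214 (2 and 38) and 13 of 30 (0 and 13), and with MS023 18 of 155 (8 and 10), 12 of 183 (4 and 8) and 7 of 26 (0 and 7). The P stalk rows include those of RPLP0 exon 6 in its several lengths, which share their skipping reads and are not independent. Of the paralogues with an L suffix, 1 of 11 SE was called in 4-day co-treatment. Over all SE, the shares called at 4 days were 14.6% with co-treatment, 10.6% with GSK591 and 4.28% with MS023. Whether the counts by place in the ribosome differ from these shares was not tested. Over the 8 comparisons 154 of 383 tested exons were called at least once, against 21% of all exons counted the same way, and 54 at least 4 times, against 4.86%. The 154 exons lay in 66 of 81 genes.

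Genes outside the rule gave the following counts. Mitochondrial ribosomal proteins, which build the ribosome of mitochondria, had 55 of 347 SE called in 4-day co-treatment (8 higher and 47 lower), 39 of 328 with GSK591 and 17 of 329 with MS023 at 4 days, with medians of ΔΨ of -0.00139, -0.00125 and -0.000623. For translation factors and ribosome-linked genes such as EEF1A1 and EEF2 these counts were 56 of 232 (23 higher and 33 lower), 37 of 231 and 18 of 231, with medians of -0.000172, -0.000183 and -0.000174. The shares called over all SE at 4 days were 14.6% with co-treatment, 10.6% with GSK591 and 4.28% with MS023. The cytosolic counts were 141 of 430, 97 of 417 and 37 of 364 in the same order. The cytosolic medians at 4 days were -0.000194, -0.000172 and -4.16e-05 in the same order.

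**Figure D1:**
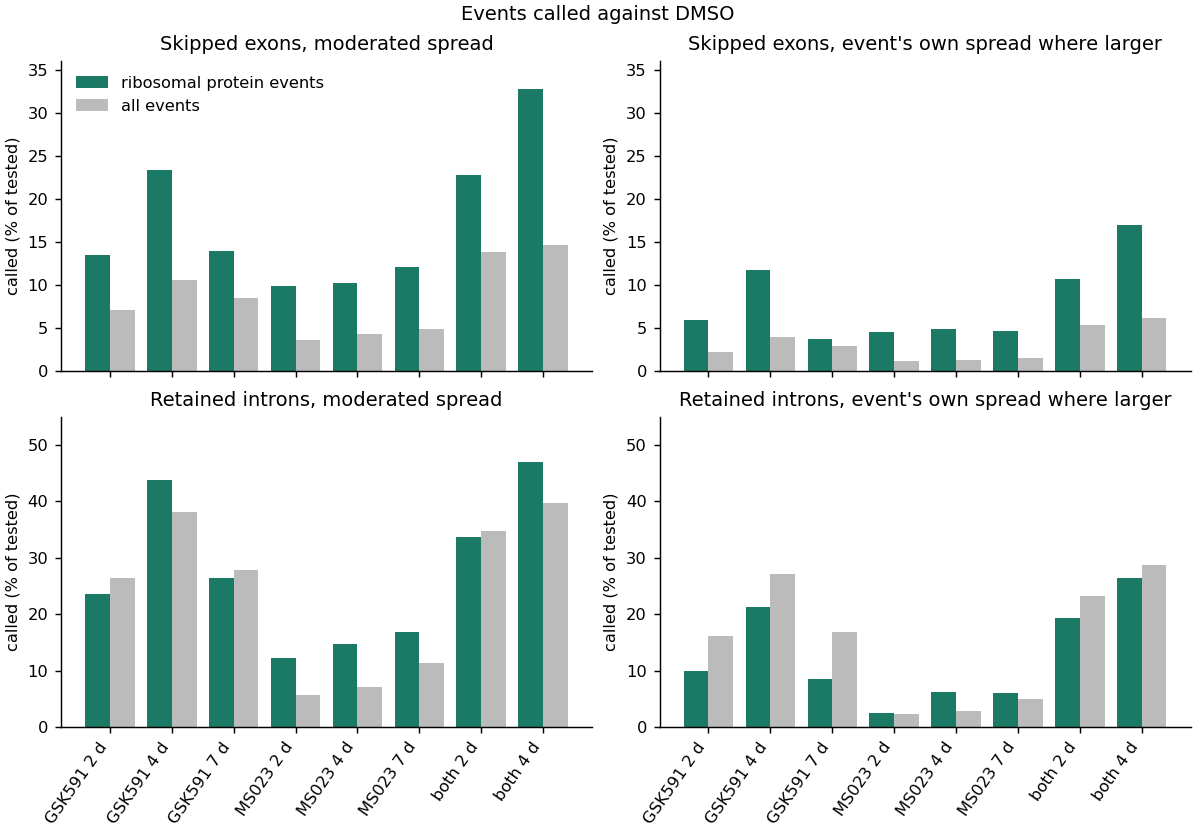
Share of tested events that were called, in percent on the y axis, in each of the 8 comparisons with DMSO on the x axis, for ribosomal protein genes (green) and all genes (grey); panels give SE and RI with the moderated spread and with the event's own spread where larger. For SE the green bars stand above the grey ones throughout, whereas for RI in 4-day co-treatment 39 of 83 members were called beside 39.7% of all introns and in the stricter form 22 beside 28.8%.

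The ribosomal protein introns lay mostly at the ends of the scale of Ψ. In the 4-day DMSO libraries 48 of 86 were below 0.05 (55.8% against 24.8% of all 4192 RI), 25 were above 0.9 (29.1% against 24.2%), and the median was 0.0264 against 0.21. Those above 0.9 are mostly rows whose interval holds bases that are exonic in the reference transcript: 48 of the 87 intervals are introns of the reference transcript, 25 hold exonic bases of it and 14 are neither. Their median length was 291 bases and their median GC content 55%, against 260 bases and 57.4% for all RI. A snoRNA lies in 23 of them, and their median depth was 10208 reads against 243.

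Called introns were mostly higher after 2 days of GSK591, lay on both sides of DMSO after 4 and 7 days of GSK591 and with co-treatment, and were mostly lower with MS023. With GSK591, 19 of 81 were called at 2 days against 26.4% of all RI (17 higher against 24%, 2 lower against 2.38%). At 4 days it was 35 of 80 against 38.2% (21 higher against 33.9%, 14 lower against 4.32%), and at 7 days 22 of 83 against 27.9% (12 higher against 21.8%, 10 lower against 6.1%). With MS023, 10 of 82 were called at 2 days against 5.65% (1 higher against 1.44%, 9 lower against 4.21%), 12 of 81 at 4 days against 7.17% (0 higher against 1.57%, 12 lower against 5.6%) and 14 of 83 at 7 days against 11.4% (4 higher against 1.93%, 10 lower against 9.49%). With co-treatment, 28 of 83 were called at 2 days against 34.7% (13 higher against 29.7%, 15 lower against 5.03%) and 39 of 83 at 4 days against 39.7% (18 higher against 33.6%, 21 lower against 6.1%). Higher calls made up 1333 of 1503 over all RI with GSK591 at 4 days and 1326 of 1567 with co-treatment. The difference between these splits and those of the members was not tested. The median ΔΨ of the members was 0.000415 with GSK591 at 4 days and -0.000174 with co-treatment, against 0.0196 and 0.0161 for all RI.

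Changes of at least 0.05 were few: 6 members with GSK591 at 4 days (2 higher and 4 lower, 7.5% against 27.4% of all RI) and 8 with co-treatment (2 and 6, 9.64% against 28.6%). Among introns of the reference transcript alone, 23 of 48 were called with GSK591 at 4 days (16 higher and 7 lower), 26 of 48 with co-treatment (15 and 11) and 9 of 48 with MS023 (0 and 9). Rows that hold exonic bases were called in 7 of 23 cases with 4-day co-treatment, and all 7 were lower. Of introns with a snoRNA, 7 of 19 were called with GSK591 and 7 of 22 with co-treatment at 4 days. The stricter form called 8, 17 and 7 members with GSK591 at 2, 4 and 7 days (against 16.2%, 27.1% and 16.8% of all RI), 2, 5 and 5 with MS023 (2.28%, 2.76% and 5.02%), and 16 and 22 with co-treatment at 2 and 4 days (23.2% and 28.8%). By subunit, 17 of 35 introns of small subunit genes (12 higher and 5 lower) and 17 of 42 of large subunit genes (8 and 9) were called with GSK591 at 4 days.

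**Figure D2:**
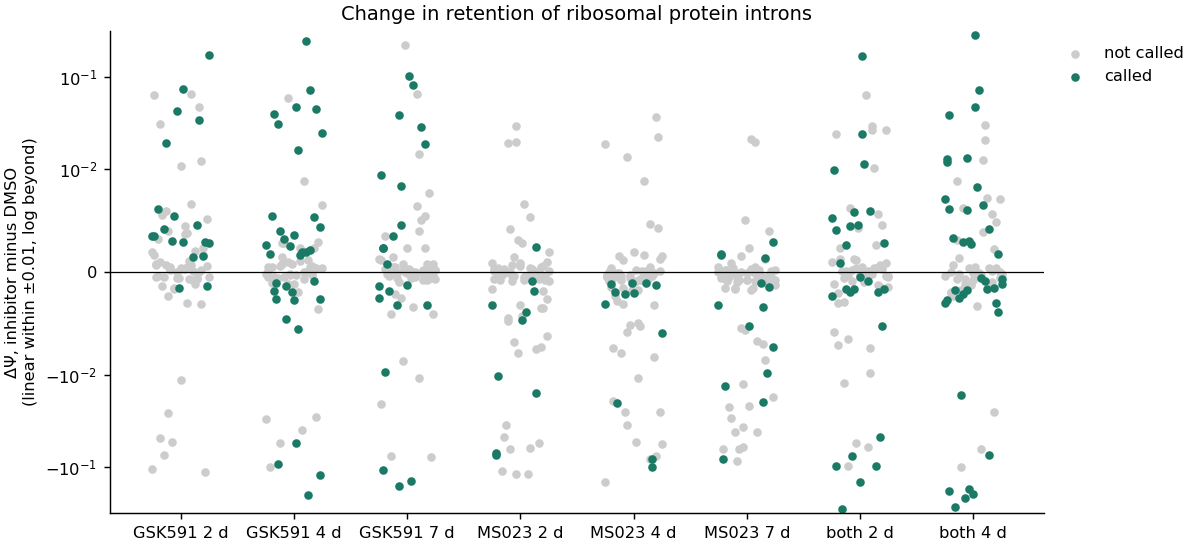
ΔΨ of each tested ribosomal protein intron on the y axis (linear near 0 and logarithmic beyond), for each comparison with DMSO on the x axis, with called introns in green. Called introns lie on both sides of 0 with GSK591 and co-treatment (21 higher and 14 lower, and 18 higher and 21 lower, at 4 days) and below 0 with MS023 at 4 days (0 higher and 12 lower).

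Over the 8 comparisons 57 of the 87 introns, in 34 of 42 genes, were called at least once, against 53.2% of all introns counted the same way, and 21 were called at least 4 times, against 24.1%.

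RPS21 intron 5, the last intron of a small subunit gene, rose with GSK591 and fell with MS023. The 4-day DMSO libraries held 0.0854, 0.0851 and 0.0854, the 4-day GSK591 libraries 0.112, 0.116 and 0.119, the MS023 libraries 0.0645, 0.0609 and 0.0696 and the co-treated libraries 0.101, 0.0936 and 0.1. No group overlapped another at 4 days, and co-treatment lay between the DMSO and GSK591 libraries. The differences from DMSO were 0.0305, -0.0203 and 0.0129 (adjusted p = 7.91e-06, 0.00263 and 0.0179), and co-treatment was 0.0176 below GSK591 (adjusted p = 0.0175). At 2 days MS023 was 0.016 below DMSO (adjusted p = 0.0149) and GSK591 was not called. At 7 days GSK591 was 0.00944 above (adjusted p = 0.0373), less than at 4 days by 0.32 ± 0.04 log2 odds (adjusted p = 0.0347), and MS023 was 0.0197 below (adjusted p = 0.104).

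A 151-base interval of RPL17 that holds SNORD58B (chr18:47017955-47018105, an annotated intron of a transcript other than the reference) showed opposite directions with GSK591 and MS023 at a high level. Its Ψ was 0.944, 0.934 and 0.937 in the 4-day DMSO libraries. It was 0.993, 0.975 and 0.988 with GSK591, 0.868, 0.856 and 0.847 with MS023, and 0.98, 0.986 and 0.967 with both at 4 days. GSK591 and co-treated libraries were all above and MS023 libraries all below DMSO (differences 0.0469, 0.039 and -0.0815, adjusted p = 0.0285, 0.000468 and 0.00047). At 7 days the differences from DMSO were 0.039 with GSK591 and -0.083 with MS023 (adjusted p = 0.0124 and 3.74e-08). RPL17 overlaps a readthrough gene that contains C18orf32, so reads could belong to either.

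RPS7, whose protein belongs to the small subunit and binds MDM2, has a 143-base interval (chr2:3623039-3623181, an intron of a transcript other than the reference) of lower depth. Its Ψ was 0.649, 0.564 and 0.548 in the 4-day DMSO libraries, 0.81, 0.85 and 0.829 with GSK591 and 0.826, 0.966 and 0.818 with both at 4 days. All libraries of both groups lay above DMSO (differences 0.243 and 0.283, adjusted p = 0.000102 and 0.0377). MS023 was not called, and it lay 0.3 below GSK591 at 4 days (adjusted p = 8.16e-07). The 7-day DMSO libraries held 0.832, 0.842 and 0.753, which is 0.222 above the 4-day ones (adjusted p = 0.12), and GSK591 was then 0.103 above DMSO (adjusted p = 0.134).

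RPS4X intron 4 of 6 (1080 bases) moved in opposite directions with GSK591 and with co-treatment at 4 days. Ψ was 0.00526, 0.00507 and 0.00575 in the 4-day DMSO libraries, 0.00758, 0.008 and 0.00812 with GSK591 and 0.00314, 0.00273 and 0.00262 with both at 4 days. GSK591 libraries were all above and co-treated libraries all below DMSO (differences 0.00254 and -0.00253, adjusted p = 1.26e-06 and 0.00441), and MS023 was not called. The co-treated value was lower than the sum of both single effects by 1.35 ± 0.1 log2 odds (adjusted p = 1.33e-08). At 2 days co-treatment was also below DMSO (-0.00172, adjusted p = 0.0207). The 7-day libraries held 0.00938, 0.00974 and 0.0113 with DMSO, 0.0159, 0.0129 and 0.012 with GSK591 and 0.0102, 0.0103 and 0.0111 with MS023. DMSO alone was thus 0.00477 higher at 7 than at 4 days (adjusted p = 0.0379), more than either difference from DMSO at 4 days, and GSK591 had an adjusted p of 0.186 at 7 days.

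Several other introns called in at least 4 comparisons were higher with GSK591 or co-treatment. RPL13 intron 2 went from 0.0111 in 4-day DMSO to 0.021 and 0.023 in 2- and 4-day co-treatment (adjusted p = 0.00302 and 1.4e-11) and to 0.0157 with GSK591 at 2 days (adjusted p = 0.0492), and RPL13 intron 3, which holds SNORD68, went from 0.0102 to 0.0131 in 4-day co-treatment (adjusted p = 0.000602). RPS16, a small subunit protein whose tail reaches the tRNA in the P site, had intron 4 at 0.00483, 0.0041 and 0.00513 in DMSO and at 0.00771, 0.00765 and 0.00786 with GSK591 at 2 days (difference 0.00305, adjusted p = 8.5e-05). Its intron 3 fell instead, from 0.00958 to 0.00746 with MS023 at 4 days (adjusted p = 0.0191), and its intron 2 rose from 0.0069 to 0.0115 in 2-day co-treatment (adjusted p = 0.0235). RPL10A intron 2 rose from 0.011 to 0.0172 and 0.0164 with GSK591 at 2 and 4 days and to 0.0171 in 4-day co-treatment (adjusted p = 0.0042, 0.00325 and 0.00148), while its intron 3 had means of 0.0253 in DMSO and 0.0318 in 4-day co-treatment (adjusted p = 0.102).

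Introns of RPL7A, RPL28 and RPS9 fell. RPL7A intron 5, which holds SNORD36A, went from 0.0103 to 0.00749 with GSK591, 0.00826 with MS023 and 0.00749 with both at 4 days (adjusted p = 0.0261, 0.0173 and 0.000119). RPL28 intron 3 went from 0.00625 to 0.00362 with GSK591 at 4 days (adjusted p = 0.0187). In RPS9, an interval of 673 bases (chr19:54710593-54711265) went from 0.452 to 0.233 and one of 90 bases (chr19:54710331-54710420) from 0.567 to 0.384 in 4-day co-treatment (adjusted p = 7.01e-10 and 1.61e-06). Introns of RPL10, RPL37A and RPS2, and intron 3 of RPL10A, were called at least 4 times with the moderated spread and never in the stricter form.

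Other large falls came from rows that hold exonic bases of the reference transcript. The RPL23 row that holds SNORA21 went from 0.509 in DMSO to 0.222 and 0.235 in 2- and 4-day co-treatment (adjusted p = 0.000561 and 0.00133), and that of RPL3 with SNORD83B from 0.573 to 0.371 with GSK591 at 4 days (adjusted p = 0.0422). A row of RPL12, a large subunit protein at the base of the stalk, went from 0.96 to 0.838 with GSK591 and to 0.762 with both at 4 days (adjusted p = 0.00732 and 0.0298). RPL6 went from 1 in each DMSO library to 0.926 in 4-day co-treatment (adjusted p = 0.0473).

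The genes named whatever their result gave the following values. In RPS3, a small subunit protein that lines the mRNA entry channel, one intron fell from 0.008 to 0.00613 with GSK591 at 4 days (adjusted p = 0.000401), and its best covered exon went from 0.99976 to 0.99894 (adjusted p = 0.0182). The RPS27L intron rose from 0.00885 to 0.0122 in 4-day co-treatment and fell from 0.00533 to 0.00385 with MS023 at 7 days (adjusted p = 0.0449 and 0.0184), and RPL30 intron 2 rose from 0.0293 to 0.0375 in 4-day co-treatment (adjusted p = 0.0377). The named introns of RPS2 and RPL13A, 3 in each gene, did not pass the stricter form in any comparison. The best covered exons of RPL12, RPL3, RPL22L1, RPS2 and RPS27L were not called, and RPL10A exon 3 went from 0.999 to 0.996 with GSK591 at 4 days (adjusted p = 1.88e-05). A RPS10 exon (chr6:34385575-34385674) that DMSO libraries hardly used (0.000756) reached 0.00258 with MS023 at 2 days (adjusted p = 0.0465).

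The remaining event types held further changes. Of the MXE, 45 of 133 were called with GSK591 at 4 days (39 higher and 6 lower, against 7.25% of all MXE), 14 of 113 with MS023 (4 and 10, against 1.4%) and 60 of 140 with both (19 and 41, against 9.58%). Of the A5SS, 25 of 70 (against 23.1%), 9 of 67 (against 3.97%) and 32 of 77 (against 24.4%) were called in the same comparisons, and of the A3SS 13 of 75 (against 8.89%), 4 of 69 (against 2.63%) and 19 of 72 (against 12.3%). At 2 days the MXE counts were 10 of 129 (5 higher and 5 lower, against 1.81%), 16 of 117 (5 and 11, against 0.956%) and 53 of 156 (24 and 29, against 8.13%). The A5SS counts were 18 of 68 (against 16.6%), 6 of 68 (against 3.62%) and 31 of 73 (against 20.6%), and the A3SS counts 2 of 72 (against 4.75%), 3 of 75 (against 2.44%) and 13 of 72 (against 9%). At 7 days GSK591 had 35 of 150 MXE called (5 higher and 30 lower, against 5.49%) and MS023 46 of 138 (6 and 40, against 2.72%). GSK591 and MS023 had 13 of 72 and 12 of 68 A5SS (against 16.3% and 5.94%) and 5 of 80 and 8 of 81 A3SS called (against 6.71% and 3.39%).

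Most of the MXE calls did not hold in the stricter form. At 4 days it called 11 MXE with GSK591 (9 higher and 2 lower, against 3.19% of all MXE), 4 with MS023 (0 and 4, against 0.456%) and 25 with both (15 and 10, against 5.16%), so that the balance of direction in co-treatment turned from mostly lower to mostly higher. With limma the co-treated split was 17 higher and 8 lower. At 2 days the stricter form called 2 (2 higher and 0 lower), 5 (1 and 4) and 22 MXE (15 and 7) in the same order (against 0.721%, 0.312% and 4.03%). At 7 days it called 8 with GSK591 (5 higher and 3 lower, against 2.09%) and 4 with MS023 (0 and 4, against 0.902%). Limma called 7 and 0 at 7 days, and 30 of the MS023 rows had an unadjusted p below 0.05 by limma. Of the A5SS the stricter form called 17, 6 and 21 at 4 days (against 12%, 1.63% and 13.5%), and of the A3SS 5, 2 and 6 (against 3.84%, 0.868% and 5.81%).

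RPL10, the large subunit protein that joins the ribosome late in its maturation, had the MXE row called in all 8 comparisons with the moderated spread, with exon 3 set against exon 4. Its value was 0.113, 0.112 and 0.105 in the 4-day DMSO libraries and 0.38, 0.385 and 0.386 with GSK591 at 4 days. GSK591 libraries were far above DMSO (difference 0.273, adjusted p = 3.37e-05), co-treatment was 0.223 above (adjusted p = 4.61e-05), and MS023 was 0.0427 below (adjusted p = 0.0405). The row does not show that the exons exclude each other: Ψ of exon 4 as a skipped exon was 0.99917 to 0.99993 in every library. RPS27A, which encodes a fusion of ubiquitin and a small subunit protein, gave 0.0733 in DMSO, 0.198 with GSK591 (adjusted p = 2.75e-18) and exon 4 at 0.9978 to 0.9996. MXE rows of RPL37A and RPL13A fell in 4-day co-treatment, from 0.908 to 0.595 and from 0.545 to 0.202 (adjusted p = 2.6e-11 and 0.00138). The RPL13A row pairs extended forms of reference exons 3 and 4. Whether the paired exons exclude each other was not checked in RPL37A or RPL13A.

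Extended 5′ splice site forms changed in a few genes. RPL7L1, a nucleolar paralogue of RPL7 that takes part in assembly, used the longer form at 0.07, 0.0675 and 0.0738 in the 4-day DMSO libraries and at means of 0.193, 0.162 and 0.303 after 2 days of GSK591, MS023 and both (adjusted p = 5.3e-08, 1.69e-08 and 0.00414). At 7 days DMSO itself held 0.171, and neither inhibitor was called. RPS15A rose with GSK591 at 2 days, from 0.163 to 0.203 (adjusted p = 0.0415), and fell with MS023 to 0.135 and 0.121 at 2 and 4 days (adjusted p = 0.00119 and 2.28e-06). RPLP0 had a longer exon form that rose from 0.00747 to 0.0168 in 4-day co-treatment (adjusted p = 0.00729), and RPL41, the shortest ribosomal protein, one that rose from 0.629 to 0.89 with GSK591 and to 0.806 with MS023 at 4 days (adjusted p = 0.000174 and 0.00569). An A5SS row of RPS3 fell from 0.988 to 0.958 in 4-day co-treatment (adjusted p = 1.01e-06). Its longer form spans all of reference intron 3 (chr11:75112778-75113395) and bases of the exon that follows. The value of this row therefore does not measure use of an extended 5′ splice site.

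**Figure D3:**
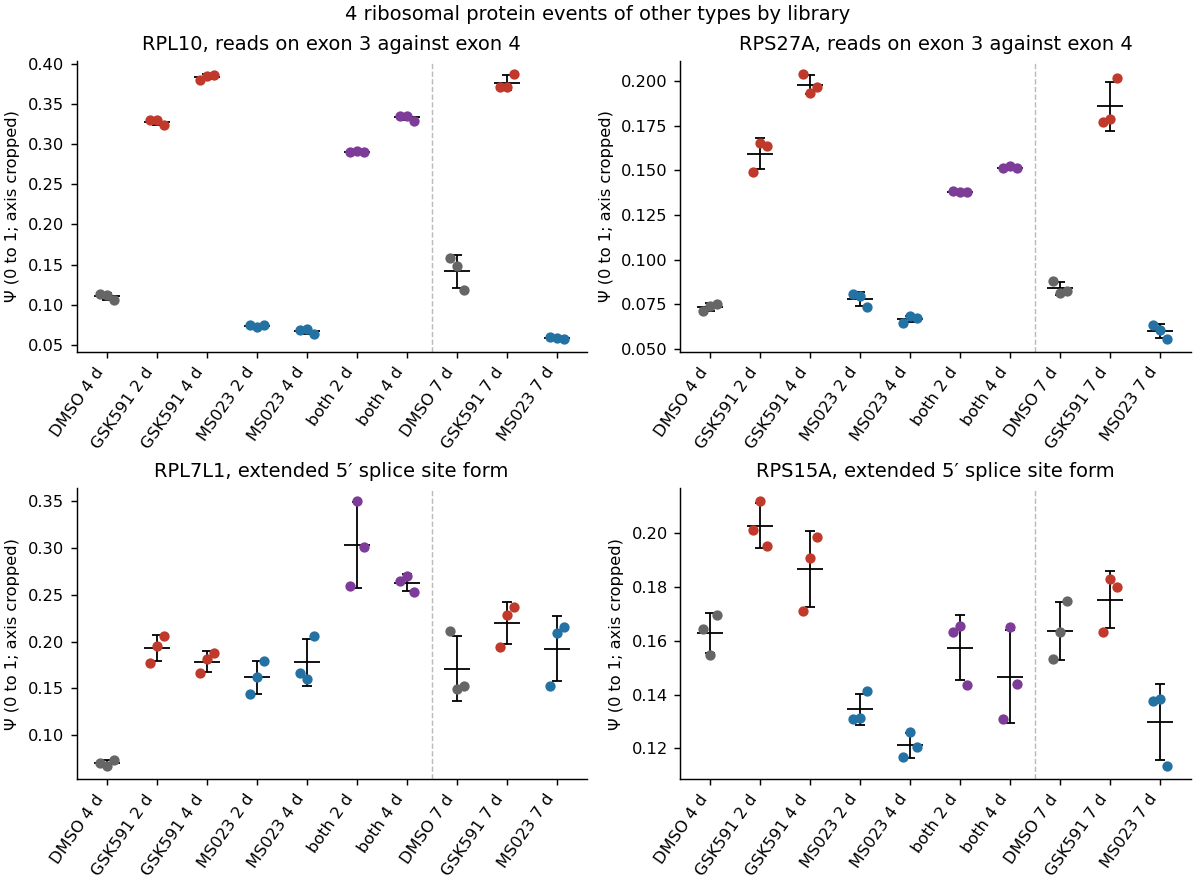
Share of length-corrected reads on the y axis for exon 3 against exon 4 of RPL10 and RPS27A and for the extended 5′ splice site form of RPL7L1 and RPS15A, in every library, by treatment group on the x axis (grey DMSO, red GSK591, blue MS023, purple both), with bars for mean ± SD of 3 libraries, a dashed line before the 7-day set and cropped y axes. GSK591 and co-treated libraries stand above DMSO in RPL10 and RPS27A at each time, and in RPS15A the MS023 libraries at 4 days lie below DMSO (mean 0.121 against 0.163).

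The inhibitors were also compared with each other directly. GSK591 against MS023 gave 30 of 81 RI at 2 days (26 higher and 4 lower with GSK591, against 34.2% of all RI), 39 of 79 at 4 days (30 and 9, against 44.8%) and 34 of 82 at 7 days (26 and 8, against 39.4%). For SE it gave 65 of 333 (19 and 46, against 10.1%), 105 of 328 (32 and 73, against 13.9%) and 80 of 343 (39 and 41, against 11.6%). In the stricter form these counts were 19, 17 and 18 RI (against 23.8%, 34.2% and 27.9% of all RI) and 43, 59 and 41 SE (against 4.5%, 6.83% and 5.27%). Co-treatment against GSK591 gave 10 of 81 RI at 2 days (against 3.45%) and 16 of 80 at 4 days (against 8.92%), and 47 of 347 and 56 of 369 SE (against 4.7% and 5.75%), of which 40 and 37 were lower with both inhibitors. The stricter form kept 4 and 10 RI (against 1.24% and 4.41%) and 24 and 27 SE (against 1.8% and 2.36%). Co-treatment against MS023 gave 78 of 334 and 102 of 330 SE (against 11.6% and 14.2%), with 70 and 77 lower, and 46 and 56 in the stricter form (against 5.35% and 6.98%).

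The co-treated values departed from the sum of both single effects on the log odds scale in 2 of 81 RI at 2 days (against 0.616% of all RI), 6 of 79 at 4 days (against 2.27%), 6 of 323 SE at 2 days (against 0.0955%) and 10 of 320 at 4 days (against 0.617%). The stricter form left 3 RI and 2 SE at 4 days (against 1.11% and 0.167%). At 2 days it left 1 SE and 0 RI (against 0.01% and 0.0804%), where 6 RI had an unadjusted p below 0.05.

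The DMSO libraries of 7 and 4 days differed in 28 of 83 RI (5 higher and 23 lower at 7 days, against 8.7% of all RI) and in 21 of 415 SE (3 and 18, against 2.45%), and the stricter form kept 6 of each (against 2.27% and 0.569%). Effects at 7 and 4 days, each against its own DMSO, differed for GSK591 in 6 of 80 RI (against 6.23%) and 24 of 333 SE (against 1.55%), and for MS023 in 1 of 79 RI (against 0.295%) and 4 of 306 SE (against 0.0558%). In the stricter form these were 3, 9, 0 and 0 (against 2.43%, 0.364%, 0.0805% and 0.0036%), and 4 RI and 25 SE of the MS023 test had an unadjusted p below 0.05. The 7-day groups and their DMSO libraries form a set of their own, so day and set cannot be told apart.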

How the data were processed

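The submitters' notes and the study's methods name Trim Galore 0.6.5, STAR 2.4.2a and the hg19 build, and splicing was counted with rMATS. How reads with several matches were handled is not given in the sources used here. The deposited tables hold, for each event, whole-number inclusion and skipping counts of junction reads and reads on the alternative segment, the effective lengths of both forms, and Ψ, with the 3 libraries of a group in 1 cell and no replicate number. The p-values, FDR and inclusion differences of the authors in the same tables were not used. The unit differs from plain counts, so Ψ was recomputed from counts and lengths, with a largest deviation of 0.0005 from the values the authors deposited. Of 254293 pairs of event and DMSO group listed in several tables, 0 differed in their counts. That the control of the 7-day tables is the 7-day DMSO group was inferred, since both 7-day inhibitor groups share it. Samples of the transcription and splicing kinetics and actinomycin D experiments were not analysed here.

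Tests were run in R 4.3.3: a quasi-binomial logistic model of inclusion and skipping counts per event, dispersion moderated with limma 3.58.1 over all events of the type and held at 1 or above, an F test, and Benjamini-Hochberg adjustment over all events of the type tested in that comparison. Events needed at least 10 reads in every library, and the threshold was 0.05. Only libraries of the compared groups entered a fit. On simulated counts the test recovered changes of deep events, but made more false calls among deep events where spread rose with depth. The form with the event's own spread kept these low, and limma on log2 odds recovered almost none. Depth per library was 866536 to 1706905 reads on ribosomal protein RI (of 3118222 to 5224249) and 5520982 to 10638286 on their SE (of 45420420 to 70493131), and the tests cover the spread of 3 libraries a group. Introns and exons were annotated with GENCODE release 44 lifted to GRCh37 and sequences read with samtools 1.23.1.

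The members and gene lists were chosen with earlier results of these data known. Named with values are, per comparison and event type, at most the 5 called members with the largest ΔΨ and at least 20 reads in every library, introns called in at least 4 comparisons, and at most the 2 best covered introns and the best covered exon of RPL3, RPL10A, RPL12, RPL30, RPS3, RPL22L1, RPS2, RPS10, RPS24, RPL13A and RPS27L. Some named members are counted but not reported here. Rows sharing the skipping junction of a named exon, direct comparisons of SE, co-treatment against MS023 and the test against the sum of both inhibitors were added after seeing the data. Alternatives were limma on log2 odds with 0.5 added to counts, at least 20 reads, a mean of 10 reads, no length correction, rows counted once, adjustment over all event types and leaving out each library.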

Additional observations from a re-analysis of the deposited data

Results flagged for a closer look

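Among the introns and exons named with values, the effect of an inhibitor differed between 7 and 4 days in 11 cases. Each effect was taken against the DMSO libraries of its own day and tested as an interaction, with 1 row per skipping junction. Over all members the test called 6 of 80 RI and 24 of 333 SE for GSK591 (against 6.23% and 1.55% of all events). For MS023 it called 1 of 79 RI and 4 of 306 SE (against 0.295% and 0.0558%). The values below are the 7-day effect minus the 4-day effect on the log2 odds scale, and 9 of them concern GSK591 and 2 MS023.

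For exons, whose inclusion GSK591 lowered at 4 days, the differences were positive: 2.47 for RPL10A exon 3, 2.15 for RPS24 exon 5, 2.03 for RPL17 exon 3, 1.32 for RPLP0 exon 6 and 1.32 for RPS25 exon 2, with 0.63 for RPLP0 exon 6 under MS023. For introns with GSK591 they were negative: -0.67 for the 673-base interval of RPS9, -0.65 for RPS16 intron 4, -0.49 for RPL13 intron 2 and -0.32 for RPS21 intron 5. Under MS023 the value for RPL13 intron 2 was -0.61. With the event's own spread, 4 of the 11 stayed below an adjusted p of 0.05: RPS16 intron 4, RPS21 intron 5, and RPLP0 exon 6 and RPS24 exon 5 with GSK591.

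RPL13 intron 2, RPS4X intron 4 and RPS25 exon 2 also differed between the DMSO libraries of both days. RPL13 intron 2 had Ψ of 0.0151 in 7-day and 0.0111 in 4-day DMSO (adjusted p = 0.000583 with the event's own spread). Outlying libraries were not looked for, since groups of 3 are too small.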

How the results depend on the processing

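No paired analysis was possible because the columns of the tables carry no replicate numbers. No named event reversed under any alternative run. Counts follow the order GSK591, MS023 and both at 2 days, GSK591, MS023 and both at 4 days, GSK591 and MS023 at 7 days.

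With limma on log2 odds, RI members called were 1, 0, 8, 8, 0, 16, 5 and 0, and members of the exon types 1, 2, 61, 32, 1, 99, 7 and 1. Of all RI, limma called 14%, 0%, 22%, 27.9%, 0%, 30.1%, 16.7% and 0% in the same order. Of all events of the exon types it called 0.0831%, 0.03%, 3.54%, 1.61%, 0.0218%, 4.93%, 0.372% and 0.0259%. Beside the counts of 0, limma gave 5, 10 and 5 RI members with an unadjusted p below 0.05 for MS023 at 2, 4 and 7 days, where the moderated test called 10, 12 and 14. With the event's own spread, added after seeing the data, the counts were 8, 2, 16, 17, 5, 22, 7 and 5 for RI and 35, 25, 90, 82, 30, 125, 33 and 30 for exons (moderated: 82, 62, 195, 180, 64, 252, 112 and 115). With the spread following depth, also added, MS023 had 6, 5 and 9 RI, and adjustment over all event types left 9 RI for MS023 at 7 days.

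In direct comparisons of RI, limma gave 9, 14 and 9 for GSK591 against MS023 at 2, 4 and 7 days. It gave 0 and 0 for co-treatment against GSK591 at 2 and 4 days (11 and 9 at an unadjusted p below 0.05), 0 for DMSO at 7 against 4 days (20 unadjusted), and 0 for each of the GSK591 and MS023 interactions with day (7 and 2 unadjusted). The own spread gave 19, 17, 18, 4, 10, 6, 3 and 0 in the same order, with 4 unadjusted beside the 0.

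Leaving out 1 library at a time gave RI counts of 13 to 26, 2 to 18, 24 to 30, 22 to 32, 5 to 18, 33 to 41, 17 to 22 and 6 to 14, and exon counts of 57 to 67, 28 to 54, 136 to 167, 124 to 155, 36 to 64, 161 to 204, 60 to 102 and 73 to 110. Direct RI counts were 26 to 39, 26 to 37 and 30 to 32 for GSK591 against MS023, 5 to 17 and 14 to 17 for co-treatment against GSK591, 22 to 31 for DMSO, and 3 to 8 and 1 to 1 for the interactions. Single libraries moved a count by over 1.5 times as follows. RI with MS023 at 2 days went from 10 to 18 without 4-day DMSO c and to 6 and 2 without MS023 b and c. With GSK591 at 4 days it went from 35 to 22 without GSK591 b, with MS023 at 4 days from 12 to 6 and 5 without MS023 b and c, and with MS023 at 7 days from 14 to 8, 7 and 6 without 7-day DMSO b and MS023 b and c. Exons went from 62 to 32, 31 and 28 without MS023 a, b and c at 2 days, from 64 to 36 and 38 without MS023 b and c at 4 days, and from 252 to 161 without co-treated a at 4 days. At 7 days they went from 112 to 60 and 60 without DMSO a and b and to 66 and 68 without GSK591 b and c, and from 115 to 76 without DMSO a and 73 and 74 without MS023 b and c. Co-treatment against GSK591 at 2 days went from 10 to 17 without GSK591 a and to 5 without co-treated b, and the GSK591 interaction from 6 to 3 without 7-day DMSO b or c. The causes were not tested.

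Of 409 named calls, 213 held with the own spread, 376 with the spread following depth, 88 with limma, 382 with adjustment over all types, and 407 with at least 20 reads. Of 2454 calls with 1 library left out, 2009 held. Without length correction 275 differences moved by more than the replicate SD. Small changes of Ψ in deep events rest on a spread estimated from 3 libraries a group, and rows of RPL6, RPL12 and RPS7 rest on few skipping reads.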
